A study of Rattus norvegicus with 3 samples.

Results

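Adora2a, Ppp1r1b, Drd1, Drd2, Rgs9 and Dlx1 are marker genes of the striatum and of forebrain neurons, and their signals were followed in rat brainstem on 3 expression arrays. They were chosen as a list of 6 symbols, with earlier results of these data known. In the platform annotation 9 probe sets carried 1 of these symbols as their only gene, out of 14217 genes named in this way. Each gene is represented by its brightest probe set by mean over the 3 arrays, and every further probe set is given as well. All 6 genes lay above the floor used throughout, a mean log2 signal of 7.44, which is the median of all probe sets other than controls; 9241 genes did so. Of the 9 probe sets, 7 were above the floor.

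The 3 arrays hold RNA from rats labelled sham, TBI (traumatic brain injury) and Hand Acu (hand acupuncture). All were taken 1 h after modelling, and tissue of 5 rats was mixed, read here as 1 pool for each array. The labels give no strain, sex or age, and they do not say whether the acupuncture rats had also been injured or where needles were placed. Per the labels' protocols the damaged cortex was dissected along with the brainstem, and the brainstem alone was used for RNA.

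Each group is 1 array, so no value below has a replicate error, no test was possible, and a difference between 2 arrays is a difference between those pools. Precision is limited by the number of arrays. The median signal was between 174 and 175. The ratio of 3' over 5' probe sets of beta-actin, which rises as RNA integrity falls, was lowest for sham (5.58). It was 6.37 for TBI and 6.69 for hand acupuncture. The same ratio for Gapdh was in another order, at 1.25 for sham, 1.20 for TBI and 1.28 for hand acupuncture. In such a bulk sample, a change in the number of cells of a type and a change in RNA per cell cannot be told apart.

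The striatum is built mainly of GABA-releasing projection neurons that receive dopamine. One kind carries the dopamine receptor encoded by Drd1, which raises cyclic AMP, and the other carries the receptor encoded by Drd2, which lowers it, together with the adenosine receptor encoded by Adora2a. Both kinds hold DARPP-32, the product of Ppp1r1b, which inhibits protein phosphatase 1 once protein kinase A has phosphorylated it, and Rgs9, which shortens G protein signals. Dlx1 is a homeobox gene of forebrain GABA neurons and is also used in the hypothalamus. Drd2 is also the autoreceptor of midbrain dopamine neurons, so it does not mark the striatum alone.

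On the TBI array all 6 genes were higher than on the sham array, by log2 differences from 0.19 (Dlx1) to 0.75 (Adora2a). Of these, 2 genes, Adora2a and Ppp1r1b, were at least 1.5-fold higher, where 0.866% of all genes above the floor were. The median of the 6 differences was 0.40, beside 0.00 over all 9241 genes, of which 51% were higher by any amount. On the hand acupuncture array 5 of the 6 were higher than on the sham array, with a median difference of 0.49. Adora2a was again at least 1.5-fold higher, where 0.996% of all genes were, and 51% of all genes were higher by any amount. The sham array is shared by these comparisons, and its own deviation would enter each of them. None of the 6 was 2-fold apart in any comparison. Because the 6 were chosen with earlier results of these data known, the shares over all genes beside them are a description and not a test.

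**Figure D1:**
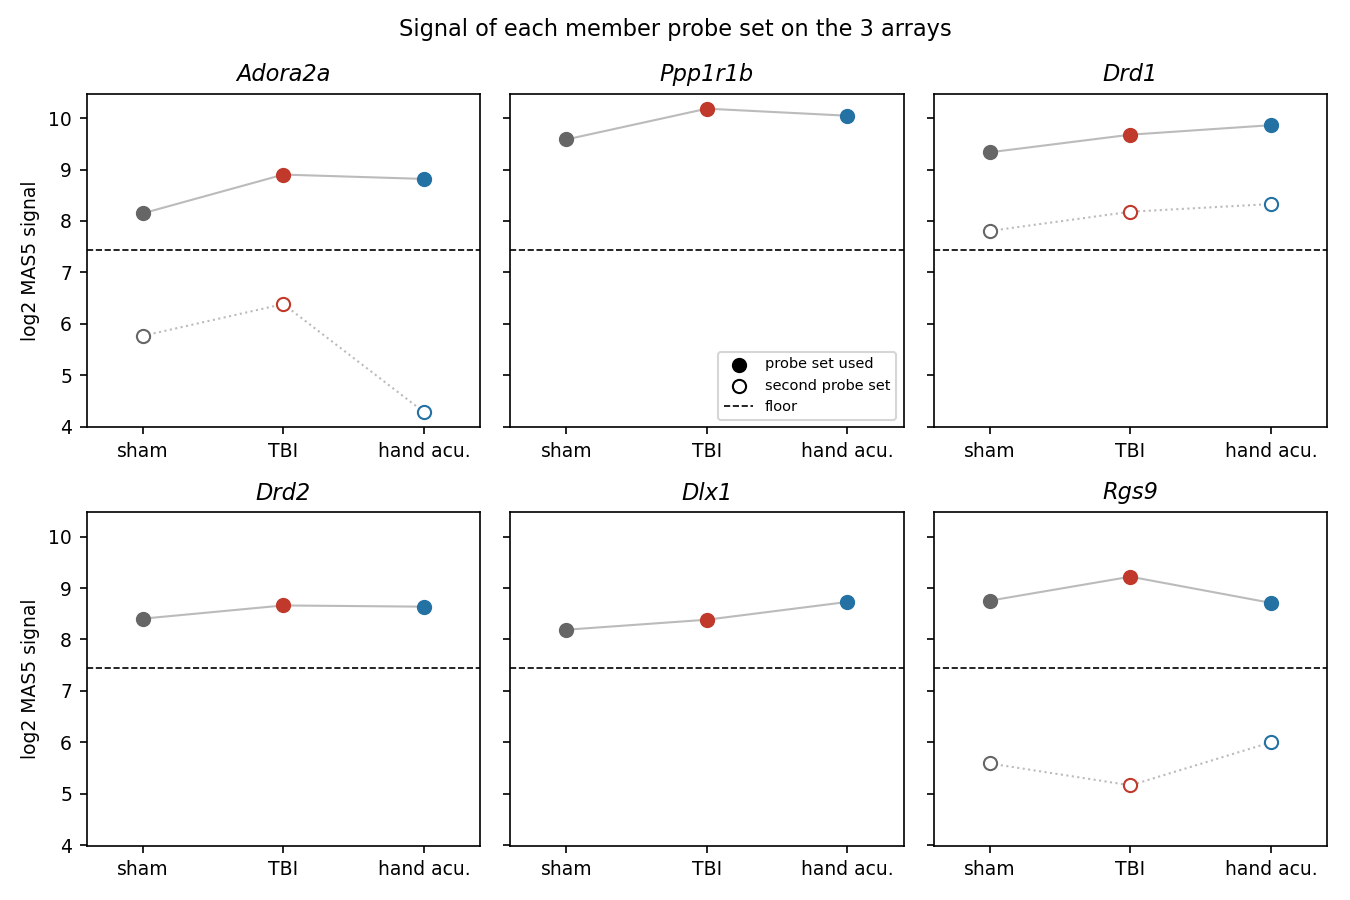
Log2 MAS5 signal (vertical axis) of every probe set of the 6 genes on each of the 3 arrays (horizontal axis). Filled points are the probe set used, open points the second probe set, and the dashed line is the floor of 7.44. The sham point is the lowest of the filled points in every panel but Rgs9, and the second probe sets of Adora2a and Rgs9 lie below the floor.

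Among the receptors, Adora2a read 8.15 in log2 signal for sham, 8.90 for TBI and 8.82 for hand acupuncture. The sham array was the low one: TBI was 1.69-fold and hand acupuncture 1.59-fold above it, and these 2 arrays differed from each other by only −0.08 in log2. Of 923 other genes in the same of 10 equal bins of mean signal, 7 were at least as far apart between TBI and sham. The second probe set of Adora2a, whose mean of 5.48 was below the floor, read 5.76, 6.38 and 4.28 in the same order. It was likewise higher on the TBI array than on the sham array, but for hand acupuncture it was the lowest of the 3, opposite to the probe set used.

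Drd1, the receptor of neurons that project directly to the basal ganglia output nuclei, was measured by 2 probe sets above the floor. The brighter read 9.34 for sham, 9.68 for TBI and 9.86 for hand acupuncture. The other read 7.81, 8.18 and 8.33. Both thus ran in the same order, and their differences were close: 0.34 and 0.37 for TBI minus sham, and 0.53 and 0.52 for hand acupuncture minus sham. Over the 2073 genes with 2 probe sets above the floor, the median gap between the pair was 0.15 for TBI minus sham, and 57.4% of pairs had the same direction. Drd1 is the only one of the 6 genes with such a pair.

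Drd2 differed least of the receptors, at 8.40 for sham, 8.66 for TBI and 8.64 for hand acupuncture. Its difference of 0.26 for TBI minus sham was matched or passed by 228 of 923 other genes of like signal, and that of 0.23 for hand acupuncture minus sham by 277. The dopamine neuron genes with which Drd2 shares cells in the midbrain had a median difference of −0.01 for TBI minus sham over 7 genes above the floor, 3 higher and 4 lower, and of −0.05 for hand acupuncture minus sham. The farthest apart for TBI minus sham were Slc18a2, the vesicular monoamine transporter, at 0.27, and Calb1, also listed below as a cerebellar gene, at −0.18. Slc6a3, the dopamine transporter, followed at −0.18 and Th, which makes the dopamine precursor, at 0.16.

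Downstream of the receptors, Ppp1r1b read 9.59 for sham, 10.18 for TBI and 10.05 for hand acupuncture in log2 signal. It was 1.51-fold higher on the TBI array, just past the 1.5-fold mark, and 1.38-fold higher on the hand acupuncture array. Of 923 other genes of like signal, 3 were as far apart between TBI and sham and 20 between hand acupuncture and sham. Ppp1r1b has 1 probe set, so no second reading was at hand.

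Rgs9 was high on the TBI array alone, with 8.75 for sham, 9.22 for TBI and 8.71 for hand acupuncture. It was the only one of the 6 genes that hand acupuncture did not put above sham (−0.04), and at −0.51 it was the lowest of the 6 for hand acupuncture minus TBI. Of the genes of like signal, 15 of 923 were as far apart in that comparison. Its second probe set, with a mean of 5.58 below the floor, read 5.59, 5.16 and 6.00, lowest on the TBI array and so opposite to the probe set used. Gnb5, the G protein beta subunit that binds Rgs9, read 11.59, 11.81 and 11.70.

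Dlx1 had the opposite order to Rgs9 between the TBI and hand acupuncture arrays. It read 8.19 for sham, 8.38 for TBI and 8.73 for hand acupuncture. At 0.35 for hand acupuncture minus TBI it was the highest of the 6, and 99 of 923 genes of like signal were as far apart. Its relative Dlx5 was below the floor, at 6.97, 7.22 and 7.26.

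By the probe sets used, Rgs9 and Dlx1 stood at opposite ends of the 6 genes for hand acupuncture minus TBI. With probe sets averaged Rgs9 was at 0.16 rather than −0.51, so this contrast rests on the Rgs9 probe set used. The 250 bases before the start sites of both genes are shown, from RefSeq on GRCr8, 5′ to 3′ on the gene's strand. The Dlx1 window is chr3:76763614-76763863 on the plus strand and the Rgs9 window chr10:94770388-94770637 on the minus strand. Capitals mark matches, on either strand, to the GC box GGGCGG, the CCAAT box CCAAT, the core TGACG of the cyclic AMP response element, the TATA box TATAAA or the homeodomain core TAATTA.
Dlx1: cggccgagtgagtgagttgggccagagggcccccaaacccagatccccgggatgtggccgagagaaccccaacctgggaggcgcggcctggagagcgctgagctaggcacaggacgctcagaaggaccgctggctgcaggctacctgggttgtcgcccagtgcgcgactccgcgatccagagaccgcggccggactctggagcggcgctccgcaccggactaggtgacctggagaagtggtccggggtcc
Rgs9: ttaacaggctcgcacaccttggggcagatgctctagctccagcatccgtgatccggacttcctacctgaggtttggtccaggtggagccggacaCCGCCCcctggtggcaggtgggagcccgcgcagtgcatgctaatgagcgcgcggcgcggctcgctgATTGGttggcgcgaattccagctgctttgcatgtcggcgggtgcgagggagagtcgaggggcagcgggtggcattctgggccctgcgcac
The Rgs9 window held 1 GC box and 1 CCAAT box, both on the opposite strand, and the Dlx1 window none of the 5 motifs. Of 33469 windows of this length in the table, 30.5% held a GC box, 34% a CCAAT box, 18.2% the cyclic AMP response core, 12.9% the TATA box and 4.86% the homeodomain core. Both windows were rich in G and C, at 69.2% for Dlx1 and 65.6% for Rgs9, beside a median of 51.2% over all windows. They held 22 and 21 CpG dinucleotides, where the median window held 5. A match is a run of letters and not a known binding site, and its bearing on the signals was not tested. The table also held windows for Drd1 and Drd2, and 4 of the 6 genes in all.

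Between the hand acupuncture and TBI arrays the 6 genes went both ways. Drd1 (0.18) and Dlx1 were higher with hand acupuncture, 2 of the 6 where 49.3% of all genes were, while Rgs9, Ppp1r1b (−0.14), Adora2a and Drd2 (−0.02) were lower. The median was −0.05, beside −0.00 over all genes. None of the 6 was 1.5-fold apart, where 1.21% of all genes were. The order of the 3 arrays was thus sham, hand acupuncture, TBI for Adora2a, Ppp1r1b and Drd2, and sham, TBI, hand acupuncture for Drd1 and Dlx1. For Rgs9 it was hand acupuncture, sham, TBI, with the first pair 0.04 apart. With 1 array a group, no neighbours in these orders can be set against a replicate spread.

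**Figure D2:**
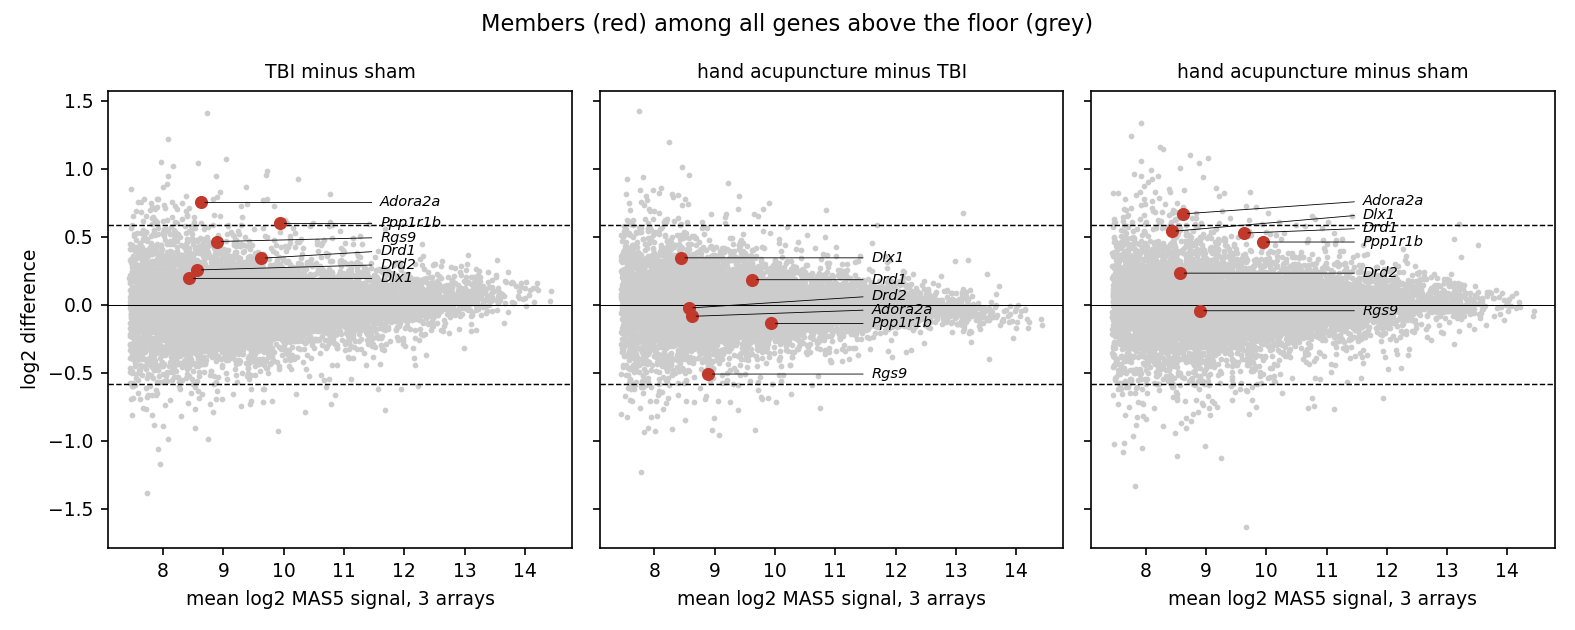
Log2 difference between 2 arrays (vertical axis) against mean log2 MAS5 signal over the 3 arrays (horizontal axis), for all 9241 genes above the floor in grey and the 6 genes in red; dashed lines mark 1.5-fold. Adora2a and Ppp1r1b lie above the upper line for TBI minus sham, Adora2a alone for hand acupuncture minus sham, and none of the 6 passes a line for hand acupuncture minus TBI.

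Among the 6, the patterns over the 3 arrays were most alike for Drd1 and Dlx1. After each gene was centred on its own mean, they were 0.13 apart in log2 (Euclidean distance over the 3 arrays). Adora2a and Ppp1r1b followed at 0.15, and Dlx1 and Rgs9 were farthest apart at 0.62. By the same measure the nearest of 9240 other genes was Rgcc for Adora2a (0.008), Kptn for Ppp1r1b (0.022), Jakmip1 for Drd1 (0.006), Cfap36 for Drd2 (0.005), Abcg4 for Dlx1 (0.008) and Fbxl15 for Rgs9 (0.023). With 3 points a close match is common: 196 genes lay within 0.05 of Drd2, 20 of Drd1, and 5 of Adora2a.

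Other genes of striatal projection neurons also read higher than on the sham array. Of 32 such genes listed without the 6, also with earlier results of these data known, 30 were on the array and 24 above the floor. For TBI minus sham 22 of the 24 were higher and 2 lower, with a median of 0.20, and 2 were at least 1.5-fold higher. Over all genes above the floor these shares were 51% higher and 0.866% at least 1.5-fold higher. For hand acupuncture minus sham 23 were higher and 1 lower, with a median of 0.23, and 1 was at least 1.5-fold higher. The shares over all genes were 51% and 0.996%. For hand acupuncture minus TBI the median was 0.06, with 18 higher, and 1 (Tmem158) was at least 1.5-fold lower, as were 0.595% of all genes. These genes had 14 further probe sets past the floor, of which 11 were higher for TBI than for sham and 11 for hand acupuncture than for sham.

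Pde10a, the phosphodiesterase that breaks down cyclic nucleotides in both kinds of striatal projection neuron, read 8.48 for sham, 9.27 for TBI and 8.95 for hand acupuncture. Its TBI minus sham difference was 0.80, and its second probe set, also above the floor, gave 0.73. Tmem158 read 9.09, 9.83 and 9.24, so it was high on the TBI array alone, as Rgs9 was. Bcl11b, a transcription factor of striatal and deep cortical neurons, read 10.67, 11.13 and 11.28, but its second probe set above the floor was opposite in both comparisons, at −0.14 for TBI minus sham and −0.29 for hand acupuncture minus sham. Rarb, a retinoic acid receptor, read 9.24, 9.68 and 9.53.

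The peptide precursors were close to the list's median. Penk, the enkephalin precursor of the neurons that carry Drd2, was 0.23 above sham for TBI and 0.28 for hand acupuncture. Tac1, the substance P precursor of the neurons that carry Drd1, was 0.22 and 0.30 above sham, and Pdyn, the dynorphin precursor, 0.24 and 0.30. These precursors are made in brainstem neurons as well. Cnr1, the cannabinoid receptor, went the other way at −0.24 and −0.21, and Syndig1l was −0.20 for TBI minus sham. Below the floor, Gpr6, an orphan receptor of the neurons that carry Drd2, read 5.88, 6.42 and 6.41. The others below the floor went both ways for TBI minus sham: Pde7b (0.24), Isl1 (0.04), Six3 (−0.14), Actn2 (−0.15) and Chrm4 (−0.29). With no floor 25 of 30 striatal genes were higher for TBI than for sham, and 27 for hand acupuncture than for sham.

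**Figure D3:**
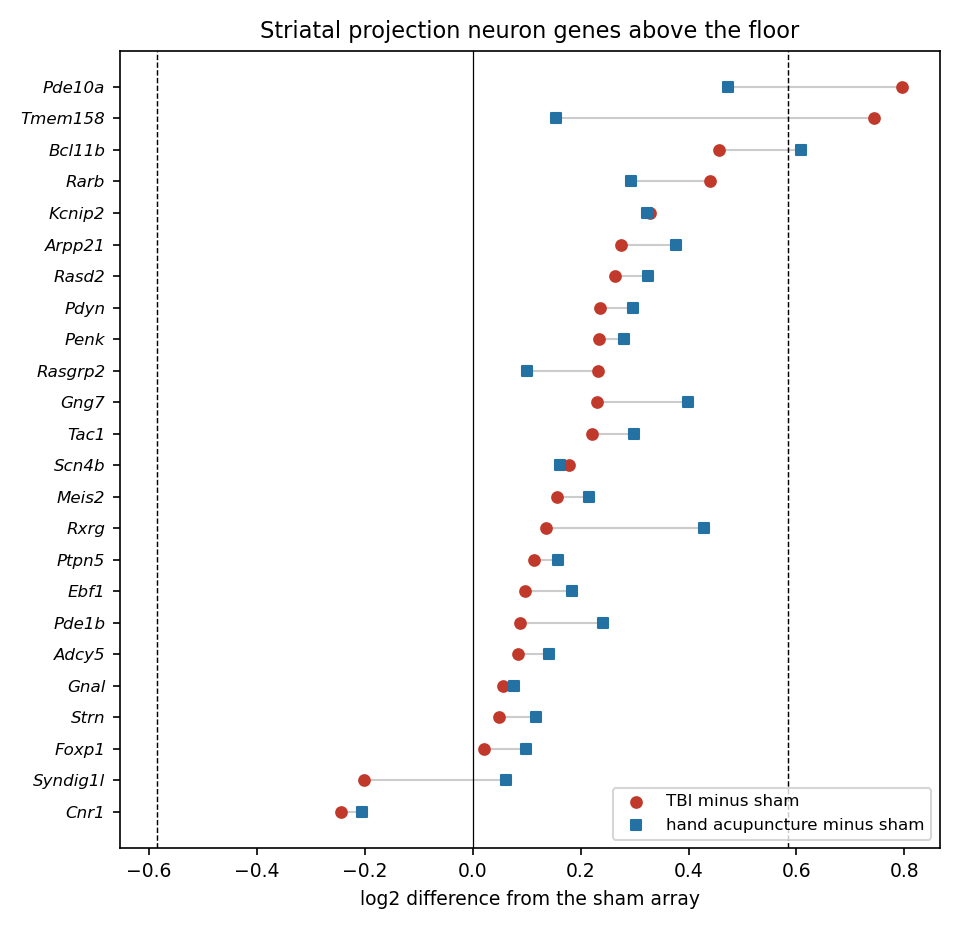
Log2 difference from the sham array (horizontal axis) for the 24 striatal projection neuron genes above the floor other than the 6 described, ordered by TBI minus sham (circles), with hand acupuncture minus sham as squares; dashed lines mark 1.5-fold. Most points lie to the right of 0, with Pde10a and Tmem158 past the 1.5-fold line on the TBI array, Bcl11b on the hand acupuncture array, and Cnr1 to the left on both.

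Genes that carry the dopamine and adenosine signal inside cells had smaller differences. Of 37 listed, 29 were above the floor, 5 of which are also in the striatal list. For TBI minus sham the median was 0.03, with 18 higher and 11 lower, where 51% of all genes were higher. Without the 5 shared genes the median was 0.00, with 13 of 24 higher and 0 at least 1.5-fold apart. The pathway's largest differences besides Pde10a were Nt5e, the enzyme that makes adenosine outside cells, at −0.34, Ppp1cb, a catalytic subunit of the phosphatase that DARPP-32 inhibits, at 0.23, and Gng7, a G protein gamma subunit of the striatum, at 0.23. The kinase subunit gene Prkaca read 10.31, 10.35 and 10.44 and the stimulatory G protein gene Gnal 9.18, 9.23 and 9.25. For hand acupuncture minus TBI the median of the 29 was 0.03, and for hand acupuncture minus sham 0.04. The other dopamine receptors Drd3, Drd4 and Drd5 were below the floor on each array.

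Genes listed for other forebrain tissue, where above the floor, did not share one direction. The forebrain GABA neuron list had a median of 0.02 for TBI minus sham over 8 genes above the floor, 5 higher and 3 lower. These 8 include genes of GABA neurons in general, such as Gad1 and Slc32a1, so they do not mark the forebrain alone. Among them Reln, the reelin gene, was at −0.62, Sst, the somatostatin gene, at 0.42, Npy at 0.18 and Slc32a1, the vesicular GABA transporter, at −0.16. The medians of these 8 genes were 0.01 against TBI and −0.05 against sham on the hand acupuncture array. With no floor 8 of 12 forebrain GABA neuron genes were higher for TBI than for sham. Below the floor were Dlx5 (0.24), Nkx2-1 (0.32), Npas1 (0.01) and Htr3a (−0.19). Cortical genes above the floor were mostly lower on the TBI array than on the sham array, 11 of 13 with a median of −0.16. Of the 13, 2 were at least 1.5-fold lower, where 0.682% of all genes were. Camk2a, a kinase of excitatory synapses, was at −0.77, but its further probe sets above the floor gave −0.20 and 0.26. Slc17a7, the vesicular glutamate transporter of the cortex and cerebellum, was at −0.74, and Lhx2 at 0.32. Of 6 further probe sets of these cortical genes past the floor, 3 had the direction of the probe set used. With no floor 6 of 19 cortical genes were higher for TBI than for sham, and 10 of 19 for hand acupuncture than for sham. Those below the floor went both ways for TBI minus sham: Emx1 (0.06), Emx2 (0.55), Tbr1 (0.31), Fezf2 (0.16), Rasgrf2 (−0.34) and Egr3 (−0.18). The cortical median was 0.09 between hand acupuncture and TBI, and −0.13 between hand acupuncture and sham. Hippocampal genes had medians of −0.00, −0.02 and 0.00 in the same order of comparisons, over 4 genes, with Ociad2 at 0.23 and Zbtb20 at −0.17 for TBI minus sham.

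Markers of tissue that borders the brainstem differed between the arrays as well, and so did hindbrain markers, which belong to the labelled tissue. Of all genes above the floor, 51% were higher for TBI than for sham and 51% for hand acupuncture than for sham. Thalamic and hypothalamic genes had a median of 0.25 for TBI minus sham, with 8 of 10 higher, among them the hormone genes Oxt at 0.58 and Crh at 0.52, then −0.17 for hand acupuncture minus TBI, and 0.10 between hand acupuncture and sham. Pmch and Hcrt, which encode peptides made by hypothalamic neurons, were above the floor on every array, Pmch at 12.08, 12.44 and 12.44 and Hcrt at 8.32, 8.47 and 8.42. Cerebellar genes had a median of −0.52 for TBI minus sham, with 15 of 16 lower, −0.08 between hand acupuncture and TBI, and −0.58 between hand acupuncture and sham. Hindbrain genes with a mean above the floor had a median of 0.25 for TBI minus sham, −0.08 between hand acupuncture and TBI, and 0.28 between hand acupuncture and sham. All 7 of these genes were higher for TBI than for sham, and 6 for hand acupuncture than for sham. Of the 7, Hoxa5 and Hoxb3 were below the floor on the sham array and passed through the arrays where they were higher. With no floor 13 of 17 hindbrain genes were higher for TBI than for sham. The median between hand acupuncture and sham was 0.17 when each gene's probe sets were averaged, and 0.13 with the higher floor of 9.25. Genes of neurons in general had medians of 0.05, −0.00 and 0.07. Of these 11 genes, 9 were higher for TBI than for sham, and 7 for hand acupuncture than for sham. Rbfox3 was at −0.31 and Uchl1 at 0.22 for TBI minus sham.

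Against the labelled tissue, 7 of 17 hindbrain genes were above the floor, a smaller share than the 65% of all named genes. This count does not by itself identify the tissue. Slc5a7, the choline transporter of cholinergic neurons, read 9.87, 10.08 and 10.01 for sham, TBI and hand acupuncture. Slc6a4, the serotonin transporter, read 8.16, 8.64 and 8.50, and Chat, which makes acetylcholine, 7.71, 7.96 and 7.99. In contrast, Slc6a5, the glycine transporter of hindbrain neurons, was far below the floor at 3.14, 3.02 and 2.11, as was Dbh, which makes noradrenaline, at 5.64, 6.25 and 6.37.

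Linear signals were also summed over each whole list, whether above the floor or not. Such a sum weighs the brightest genes of a list most. On the sham array these were Pmch and Tcf7l2 (12.08 and 11.96 in log2) among thalamic and hypothalamic genes. Among hindbrain genes it was Slc5a7 (9.87). The sum of the 6 genes was 2761 for sham, 3797 for TBI and 3683 for hand acupuncture, 1.38-fold and 1.33-fold above sham. The striatal list of 30 genes summed to 1.12 times sham for TBI and 1.15 times for hand acupuncture. The corresponding values were 0.86 and 0.96 for 19 cortical genes, 1.19 and 1.06 for 16 thalamic and hypothalamic genes, 1.24 and 1.18 for 17 hindbrain genes, and 0.81 and 0.79 for 19 cerebellar genes. The share of neighbouring tissue in each pool and a change of the 6 genes within brainstem cells cannot be told apart with 1 pool a group. The part that either has in the differences was not tested.

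**Figure D4:**
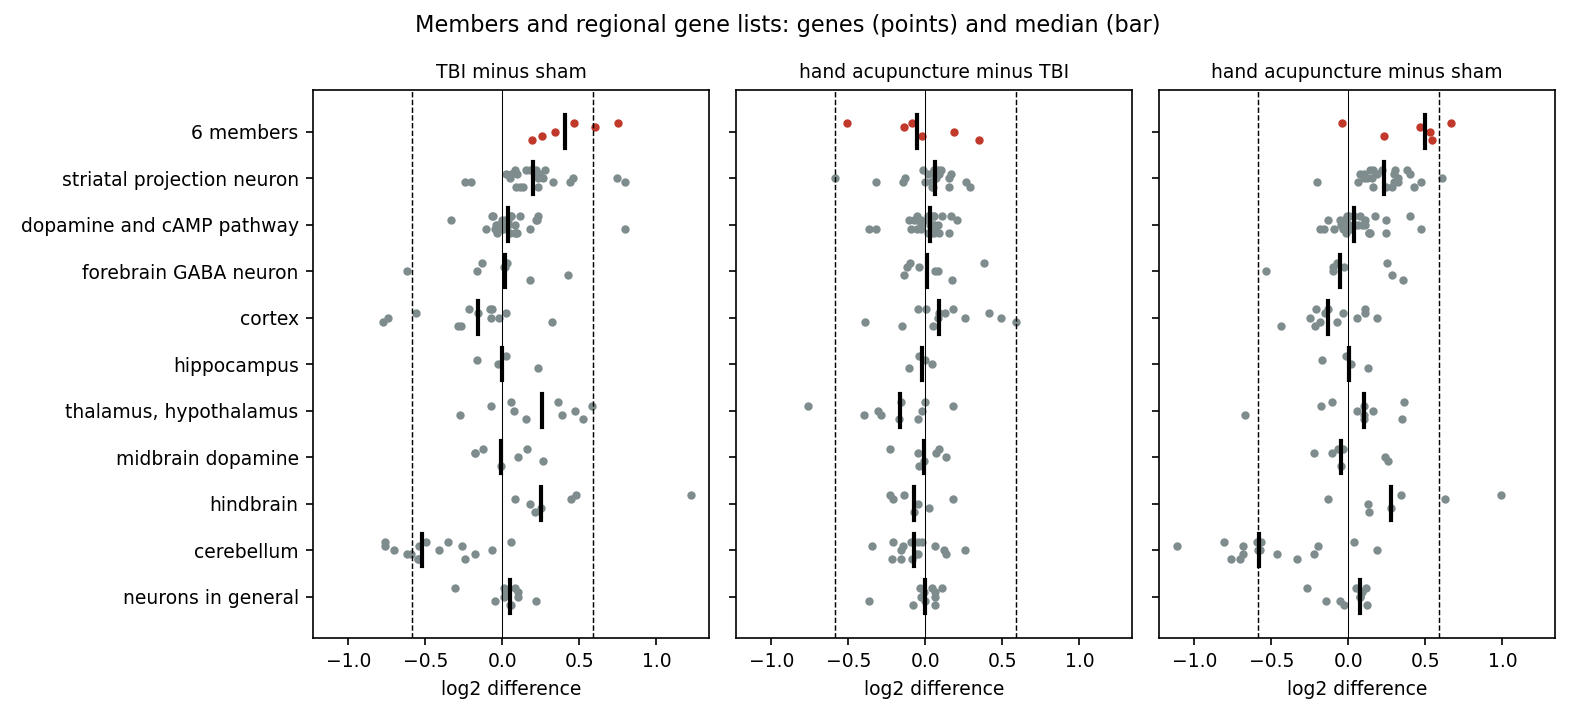
Log2 difference (horizontal axis) of single genes above the floor (points) and their median (black bar) for the 6 genes in red and 10 gene lists in grey, in the 3 comparisons; dashed lines mark 1.5-fold. The 6 genes and the striatal list lie mostly right of 0 in both comparisons with sham, and the cerebellar list left of 0.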

How the data were processed

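Rat brainstem RNA was measured on 3 arrays, 1 each for sham, TBI and hand acupuncture, from 6 µg of total RNA per the labels. The deposited values are log2 signals. Per the submitters' processing notes they were made with MAS5 (version not given), the Affymetrix method that sets perfect-match against mismatch probes. The log base and scaling were read from the deposited values: the linear signal averaged 500.0 on every array after trimming 2% at each end. MAS5 signals near background are erratic, and a floor of 7.44 in mean log2 signal was set in place of detection calls.

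Of 31099 probe sets, 57 were controls, 20826 had 1 gene symbol in the 2016 platform annotation, 436 had several and 9780 had none. All 6 symbols were found in RefSeq's GRCr8 gene table. Log2 differences between arrays were computed as deposited, with no test, since each group has 1 array. Genes at least 1.5-fold apart were counted beside the same count over all genes above the floor. The 6 genes, the 10 gene lists (169 of their 197 genes were on the array) and all rules were chosen with earlier results of these data known. Named list genes are the up to 4 farthest apart for TBI minus sham and those 1.5-fold apart; others were named after their values were seen, and not all that the rule allows are named. For each of the 6 genes, the nearest gene is that with the smallest distance after centring.

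Alternatives were quantile normalization, median centring, adding 50 to the linear signal, averaging a gene's probe sets, its second probe set, no floor, a higher floor (9.25) and 2-fold. Python 3.11.15 was used, with pandas 2.3.3, numpy 2.4.6 and, for plots, matplotlib 3.10.9; the steps were tested on simulated data.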

Additional observations from a re-analysis of the deposited data

How the results depend on the processing

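Quantile normalization, median centring and the offset of 50 kept the direction of all 18 differences (6 genes in 3 comparisons), moving none by more than 0.09. The probe set mattered more. Averaging a gene's probe sets turned 3 of 18, and with the second probe set 4 of 9. Adora2a for hand acupuncture minus sham turned from 0.67 to −0.41 with the mean and to −1.48 with the second probe set, which is below the floor. Rgs9 for TBI minus sham fell from 0.47 to 0.02 with the mean and to −0.43 with the second probe set. For hand acupuncture minus TBI, Rgs9 went from −0.51 to 0.16 with the mean, and Adora2a from −0.08 to −1.09.

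The median over the 6 genes for TBI minus sham ran from 0.31 (mean of all probe sets) to 0.42 (quantile normalization), and from 0.34 to 0.47 with each gene left out in turn. For hand acupuncture minus sham it ran from 0.35 to 0.52, and from 0.46 to 0.53 with a gene left out. For hand acupuncture minus TBI it was 0.07 with the mean, against −0.05. The count of the 6 at least 1.5-fold apart for TBI minus sham was 2, and 1 with the offset. With the mean it was 1 rather than 0 for hand acupuncture minus TBI and 0 rather than 1 for hand acupuncture minus sham. At 2-fold it was 0 in all 3 comparisons. The striatal list's median stayed between 0.19 and 0.23 for TBI minus sham and between 0.16 and 0.26 for hand acupuncture minus sham. Over all lists, 11 of 90 medians under an alternative changed sign, all of them at most 0.05 in size as reported. The hindbrain median for hand acupuncture minus sham was 0.28, against 0.17 when probe sets were averaged and 0.13 with the higher floor. Over all genes 143, 112 and 175 were 1.5-fold apart for TBI minus sham, hand acupuncture minus TBI and hand acupuncture minus sham. With no floor these were 1927, 1882 and 2036, with the higher floor 37, 20 and 33, and at 2-fold 9, 4 and 18. No paired analysis was possible because each group has 1 array. Signal over background limits the second probe sets of Adora2a and Rgs9.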
